A study of Homo sapiens with 8 samples.

Results

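The genes described here are 33 genes of the endoplasmic reticulum (ER), the compartment in which secreted and membrane proteins are folded. They are its chaperones, its lectin and disulfide folding factors, the machinery that degrades misfolded proteins, the sensors and transcription factors of the unfolded protein response, and components of the channel through which proteins enter. They were picked by name, as 32 listed symbols plus ERO1L (current symbol ERO1A), among the 25369 genes of the expression table. Of the 33, 32 had at least 1 RPKM (reads scaled to the listed gene length and to the library's total) in 4 or more of the 8 libraries and were tested. The remaining one, DERL3, had 1 to 13 reads per library and was not tested.

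RNA was sequenced from EPC2-hTERT, human keratinocytes of the esophagus that were immortalised with telomerase and labelled wild type, grown in calcium-supplemented medium on a membrane with 4 days at air so that they layer like the esophageal lining. A group of 4 libraries came from cultures that received the DMSO vehicle and a group of 4 from cultures that received 1 mM dimethyloxalylglycine (DMOG) during the final 18 h. DMOG is a cell-permeable 2-oxoglutarate analog that blocks prolyl hydroxylases, among them those that mark the alpha subunits of hypoxia-inducible factor (HIF) for degradation, and the comparison asked how expression differs when these enzymes are blocked. All 8 libraries share the 1 cell line, and the labels do not state whether replicates are separate cultures, so the p-values below describe the spread between these libraries, which may be technical.

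Proteins enter the ER through the Sec61 channel, where the Hsp70 chaperone BiP (HSPA5) and its cofactors bind them, the lectins calnexin and calreticulin hold their sugars, and protein disulfide isomerases, recharged by the oxidase ERO1, form their disulfide bonds. Glycoproteins that fail to fold are trimmed by EDEM proteins, carried back to the cytosol at the SEL1L-HRD1 ligase complex and degraded by the proteasome. Unfolded protein activates the sensors IRE1 (ERN1), PERK (EIF2AK3) and ATF6, and through them the transcription factor XBP1, which raise the transcription of many chaperone and degradation genes.

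Library totals were 31245695 to 39931833 reads in genes, and the tested members had from 106 reads (the lowest count of SDF2L1) to 64107 reads (the highest of HSPA5) in a library. CA9, a carbonic anhydrase that HIF-1 induces, stood at 0.925, 1.29, 0.129 and 0.586 RPKM in vehicle replicates 1 to 4 and at 25.2, 2.56, 9.97 and 57.5 RPKM in DMOG replicates 1 to 4, so that DMOG replicate 2 was far nearer to the vehicle libraries than the other DMOG libraries were. The authors' own comparison leaves out replicate 2 of both groups and the sources used here state no reason. Results are therefore given over all 8 libraries and over the 6 libraries with replicates 1, 3 and 4, and the p-values of the latter take no account of how those libraries were chosen. All 6 basal and all 6 suprabasal squamous markers reached 1 RPKM in at least 4 libraries, with summed levels of 8484 to 16631 and 6806 to 8127 RPKM in vehicle libraries against 11764 to 14065 and 5204 to 8417 RPKM in DMOG libraries. Of 6 leukocyte and 6 secretory cell markers none did (TYROBP, HLA-DRA, CD38 and MUC5B were at 0), with sums of at most 0.906 RPKM. Of 6 endothelial markers VWF and EGFL7 did (CDH5 at 0, sums of 4.65 to 7.503 and 5.57 to 8.07 RPKM). Of 6 fibroblast markers COL1A1 did, DCN and LUM were at 0, and the sum was 8.71 to 14.1 RPKM with vehicle and 19.02 to 31.99 RPKM with DMOG; the part of this difference in the results below was not tested. In bulk RNA, fewer cells of a type and less RNA per cell cannot be told apart.

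Promoter stretches are shown first, so that the values can be read beside them. They are those of the 9 members that hold an ER stress response element, and of DNAJC10 and ERO1L. Over the 6 libraries DNAJC10 had the smallest limma adjusted p of the members, and ERO1L was the only member called higher. Promoters of 250 bases before to 50 bases after the start were taken from RefSeq (GRCh38.p14), where 30 of the 33 members matched and PDIA3, DERL1 and DERL3 did not. Both strands were searched for exact matches to the letters given, so copies of an element that deviate from them were not counted. The ER stress response element ERSE (CCAAT, 9 bases, CCACG, the site of NF-Y with ATF6 or XBP1) was in 6 of 30 members, HSPA5, HSP90B1, CALR, CANX, PDIA6 and CRELD2 (20%), and in 27 of all 35116 promoters (0.0769%). ERSE-II (ATTGGNCCACG) was in 3 members, HYOU1, SDF2L1 and HERPUD1 (10%), and in 19 of all promoters (0.0541%). HSP90B1 held 2 ERSE and HYOU1 held 2 ERSE-II. The share of all promoters with 2 or more copies was 0.00285% for either element. This share and the others over all promoters count the members too and are no separate background. The members were picked by name as genes of the ER and its stress response, so their higher shares are no test. The core of the unfolded protein response element (TGACGTGG) was in HYOU1 and DNAJC10, 6.67% of members against 0.729% of all promoters. It overlaps an ERSE-II in HYOU1, and its letters include the HIF core ACGTG. The C/EBP-ATF core (TGATGNAA) was in HERPUD1 and CREB3L2, 6.67% against 3.62%, and the HIF core, which ERO1L holds, was in 15 of 30 members (50%) against 21.4%. CCACG and CCAAT alone, which lie within the longer elements, were in 73.3% and 76.7% of members against 38.1% and 34.6%. A match is a description of letters, not a site of binding or a cause. The stretches around the elements follow 5′ to 3′ on the strand of the gene, with the fixed letters of the elements in capitals. The HIF core is labelled for ERO1L only, although other stretches shown hold it.
HSPA5 (chr9:125241381-125241419, minus strand, ERSE): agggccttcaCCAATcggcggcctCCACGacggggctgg
HSP90B1 (chr12:103930206-103930349, plus strand, 2 ERSE): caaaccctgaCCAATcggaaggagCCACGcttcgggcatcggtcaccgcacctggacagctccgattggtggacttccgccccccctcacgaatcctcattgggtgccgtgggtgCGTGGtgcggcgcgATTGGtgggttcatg
HYOU1 (chr11:119057264-119057403, minus strand, unfolded protein response core and 2 ERSE-II): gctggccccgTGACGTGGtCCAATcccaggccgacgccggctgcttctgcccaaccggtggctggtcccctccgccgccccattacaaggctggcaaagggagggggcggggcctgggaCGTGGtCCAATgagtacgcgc
CALR (chr19:12938374-12938412, plus strand, ERSE): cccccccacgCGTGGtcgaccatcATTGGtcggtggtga
CANX (chr5:179698768-179698806, plus strand, ERSE): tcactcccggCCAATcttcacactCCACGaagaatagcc
DNAJC10 (chr2:182716122-182716149, plus strand, unfolded protein response core): gcgcacaccgCCACGTCAacctaaacct
PDIA6 (chr2:10812843-10812881, minus strand, ERSE): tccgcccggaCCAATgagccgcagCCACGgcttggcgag
CRELD2 (chr22:49918544-49918582, plus strand, ERSE): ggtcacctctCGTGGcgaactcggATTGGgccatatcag
SDF2L1 (chr22:21642104-21642134, plus strand, ERSE-II): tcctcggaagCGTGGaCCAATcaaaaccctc
HERPUD1 (chr16:56932015-56932045, plus strand, ERSE-II): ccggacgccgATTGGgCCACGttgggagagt
ERO1L (chr14:52695658-52695682, minus strand, HIF core): ggcgccgcggCACGTccacaggctg

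Over all 8 libraries, limma called 0 of the 32 members higher with DMOG and 0 lower, as it did for all 11122 genes tested (0% each way). At an unadjusted p under the threshold of 0.05, 1 member was higher and 19 were lower, against 5.98% and 29.2% of all genes, and limma-voom on recovered reads also called 0 and 0. The median log2 fold change, DMOG minus vehicle on the log2(RPKM + 1) scale, was -0.44 over the members and -0.18 over all genes, and 29 of 32 members had a negative sign against 69.3% of all genes. The member with the most negative value was DNAJC10 (-1.36 ± 0.37 SE, limma adjusted p = 0.0879), and ERO1L had the most positive (1.75 ± 0.45, adjusted p = 0.0879). Without DMOG replicate 2, 1 member was called higher and 20 lower, against 6.72% and 32.2% of all genes. Leaving out any other library gave 0 and 0.

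Over the 6 libraries, scaled by median-ratio factors, 1 member was higher with DMOG, 10 were lower and 21 were not called. Of all 11122 genes, 13.7% were higher and 16.1% lower. The disulfide oxidase ERO1L rose, while the chaperones HSPA5 and HYOU1, the disulfide reductase DNAJC10, the degradation factors EDEM1, EDEM2, EDEM3 and SEL1L, the sensor ATF6 and the translocation components SEC61A1 and SSR1 fell. The median over members was -0.31, and over all genes it was -0.00. With RPKM as deposited the median gene stood at -0.26 and the members' median at -0.58, and 1 member was higher and 18 lower, against 6.13% and 34.5% of all genes. The 8 members called lower as deposited but not in the main scaled fit were DNAJB11, CANX, HERPUD1, DERL1, XBP1, ERN1, CREB3L2 and SEC61B. With the replicate number as a block, 2 members were higher and 12 lower, against 2181 and 2337 of the 11122 genes. Leaving out vehicle replicate 1 or 4 or DMOG replicate 1 left 3 members lower, against 4.85%, 5.27% and 5.46% of all genes. There were 5 lower without vehicle replicate 3 (9.15% of all genes) and 16 without DMOG replicate 3 (22.7%).

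**Figure D1:**
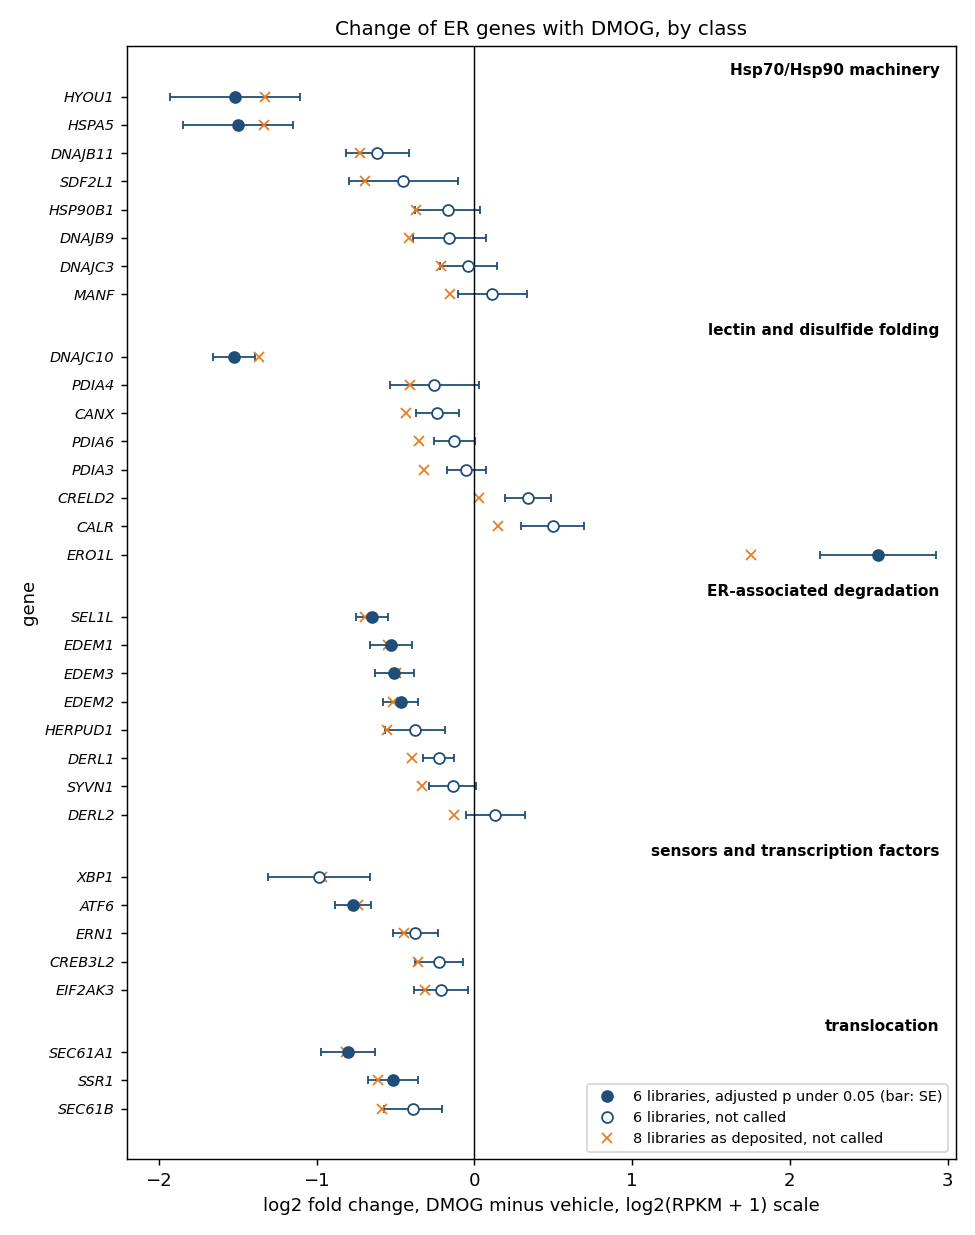
Log2 fold change of each tested member, DMOG minus vehicle, on the log2(RPKM + 1) scale, grouped by class. Circles are the 6-library comparison with median-ratio factors, with bars of 1 SE and filled where the limma adjusted p is under 0.05, and crosses are the 8-library comparison as deposited. ERO1L is the only filled circle to the right of 0, and the 10 filled circles to the left lie between -1.52 for DNAJC10 and -0.47 for EDEM2.

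The levels given below are RPKM as deposited, and fold changes are those of the 6-library fit. Of the 8 members of the Hsp70 and Hsp90 machinery, HSPA5 and HYOU1 fell over the 6 libraries and the other 6 were not called (class median -0.31). HSPA5 (chr9:127997127-128003666, hg19) encodes BiP, the Hsp70 of the ER lumen and the most abundant of the 33 transcripts per length in vehicle libraries. It stood at 403, 384, 403 and 474 RPKM in vehicle replicates 1 to 4 and at 119, 399.6, 218 and 68.8 RPKM in DMOG replicates 1 to 4. DMOG replicate 2 lay inside the vehicle range and the other 3 DMOG libraries lay below it, replicate 4 at 16.6% of the vehicle mean. Its mean was 427 ± 41.1 RPKM with vehicle and 135 ± 75.8 RPKM with DMOG (SD, n = 3 each, as deposited), and the fit to the scaled values gave -1.50 ± 0.35 in log2 (SE, limma adjusted p = 0.0212). The call was lost without vehicle replicate 1, 3 or 4 or DMOG replicate 1 (adjusted p = 0.0669, 0.0575, 0.0736 and 0.0756, with 0.00206 to 0.0756 over all 12 alternatives).

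HYOU1 (chr11:118914896-118927957, hg19) encodes the large Hsp70-like protein GRP170, an exchange factor for BiP. Its levels were 54.5, 45.7, 58.7 and 59.1 RPKM with vehicle and 14.5, 49.2, 32.99 and 7.85 RPKM with DMOG, each in the order of replicates 1 to 4. As for HSPA5, replicate 2 of the DMOG group was inside the vehicle range, and replicate 4 was the lowest, at 14.4% of the vehicle mean. HYOU1 fell by 1.52 ± 0.41 on the log2 scale over the 6 libraries (limma adjusted p = 0.0334). That call was lost with no filter on low values (0.0713) and without vehicle replicate 1, 3 or 4 or DMOG replicate 1 (0.0894, 0.0881, 0.0941 and 0.105, with 0.00199 to 0.105 over all 12 alternatives).

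The promoter window of HSP90B1, the Hsp90 of the ER (GRP94), holds 2 exact ERSE matches and that of HSPA5 holds 1. HSP90B1 was not called. It stood at 135, 142, 129 and 122 RPKM with vehicle and at 91.6, 134, 130.2 and 66.3 RPKM with DMOG. DMOG replicates 2 and 3 were inside the vehicle range, and replicates 1 and 4 were below it (-0.17 ± 0.21, adjusted p = 0.5501). The ratio of HSPA5 to HSP90B1 on the RPKM scale was 2.98, 2.703, 3.12 and 3.900 in the vehicle libraries and 1.299, 2.98, 1.67 and 1.04 in the DMOG libraries. DMOG replicates 1, 3 and 4 were below every vehicle library in this ratio and replicate 2 was not; the pair was chosen after its values were seen and has no test.

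DNAJB11, a BiP cofactor with a J domain (ERdj3), was one of 2 members, with DERL1, whose 4 DMOG libraries all lay below the 4 vehicle libraries on the median-ratio scale, where this held for 7.33% of all genes tested. Its levels were 31.98, 29.8, 31.3 and 34.1 RPKM with vehicle and 17.1, 26.1, 23.6 and 11.7 RPKM with DMOG. The 6-library value was -0.62 ± 0.20 (limma adjusted p = 0.0561), and with the replicate number as a block the adjusted p was 0.0403, which is a call; over all 12 alternatives it ran from 0.00647 to 0.142. Among the other J-domain proteins, DNAJB9 (ERdj4) and DNAJC3 (p58IPK) had values of -0.16 (limma adjusted p = 0.616) and -0.04 (0.882). DNAJC10, described below with the disulfide factors, fell (-1.52, 0.00241). SDF2L1, which stabilises ERdj3 with BiP, had -0.45 (0.341), and MANF, a secreted BiP-binding protein, 0.11 (0.703). With SDs of 2.63 RPKM around 13.3 RPKM for SDF2L1 and 3.28 around 15.3 for DNAJB9, the vehicle libraries themselves were spread widely for these genes (CV of 19.7% and 21.4%).

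**Figure D2:**
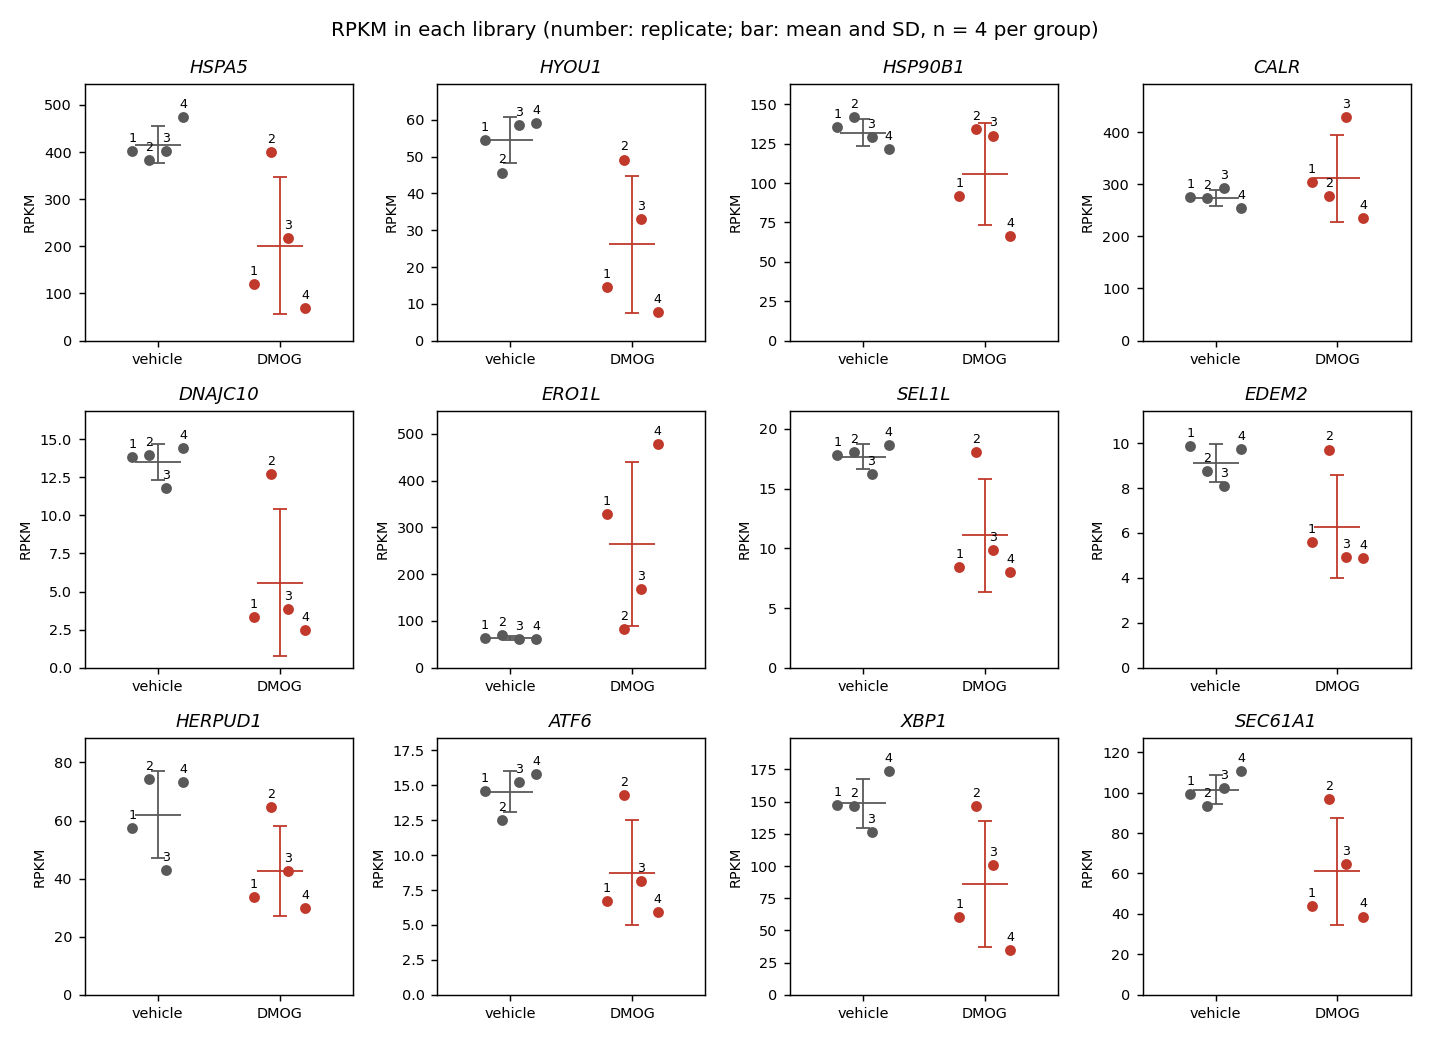
RPKM of 12 members in each of the 8 libraries, with vehicle in grey and DMOG in red. Points are libraries marked with their replicate number, and bars are the mean and SD of 4 libraries. DMOG replicate 2 lies beside the vehicle points for HSPA5, DNAJC10, SEL1L, EDEM2, ATF6 and SEC61A1, while the other 3 DMOG points lie below them, and for ERO1L all 4 DMOG points lie above the vehicle points.

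Among the 8 lectin and disulfide folding factors, ERO1L rose, DNAJC10 fell and 6 were not called (class median -0.09). ERO1L (chr14:53108605-53162419, hg19), whose product passes electrons from protein disulfide isomerase to oxygen and which HIF-1 is known to induce, stood at 62.4, 70.6, 60.4 and 61.96 RPKM with vehicle and at 329, 83.2, 169 and 478 RPKM with DMOG. It was the only member with all 4 DMOG libraries above all vehicle libraries, where 5.04% of all genes were so placed on the median-ratio scale, and DMOG replicate 2 exceeded the highest vehicle library by the least. The mean was 61.6 ± 1.08 RPKM with vehicle and 325 ± 154 RPKM with DMOG (SD, n = 3 each, as deposited), and the scaled values gave 2.56 ± 0.37 SE in log2 (limma adjusted p = 0.00678). ERO1L was called in each of the 12 alternatives for the 6 libraries (adjusted p of 0.000666 to 0.03801). Its promoter stretch above holds the HIF core, as do 50% of the 30 matched members and 21.4% of all promoters. HYOU1, DNAJC10, EDEM2, EDEM3, SEC61A1 and SSR1, which fell, hold it too.

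DNAJC10 (chr2:183580768-183644750, hg19) encodes ERdj5, a J-domain protein that reduces disulfides of proteins bound for degradation. It stood at 13.8, 13.9, 11.8 and 14.4 RPKM with vehicle and at 3.32, 12.7, 3.84 and 2.46 RPKM with DMOG. DMOG replicates 1, 3 and 4 were close to one another, at 24.6%, 28.5% and 18.2% of the vehicle mean, and replicate 2 was inside the vehicle range. DNAJC10 had the smallest adjusted p of all members, with a log2 fold change of -1.52 ± 0.13 (limma adjusted p = 0.00241), and was called in each of the 12 alternatives (0.000909 to 0.0234). The ratio of DNAJC10 to the disulfide isomerase PDIA6 was 0.238, 0.237, 0.199 and 0.242 with vehicle and 0.0814, 0.237, 0.0712 and 0.0652 with DMOG. DMOG replicate 2 again lay with the vehicle libraries in this ratio, and the pair was chosen after its values were seen.

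Calreticulin (CALR), the soluble lectin chaperone, had 276, 273, 292 and 254 RPKM with vehicle and 305, 277, 429 and 235 RPKM with DMOG. DMOG replicate 3 stood highest and DMOG replicate 4 lowest of all 8 libraries as deposited, whereas on the median-ratio scale DMOG replicates 1, 3 and 4 were all above the vehicle range. CALR was not called over the 6 libraries (0.50 ± 0.20, limma adjusted p = 0.0956), but was called higher with the replicate block (0.0295) and without DMOG replicate 4 (0.0369), with 0.0295 to 0.492 over the 12 alternatives. Calnexin (CANX), its membrane-bound partner, had 105, 105, 117 and 109 RPKM with vehicle and 69.1, 95.4, 91.5 and 68.5 RPKM with DMOG. Every DMOG library of CANX was below every vehicle library as deposited, but not on the median-ratio scale. Its value was -0.23 ± 0.13 over the 6 libraries (adjusted p = 0.212, and 0.0219 as deposited, with 0.0219 to 0.488 over the 12 alternatives). Both genes have 1 ERSE.

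The protein disulfide isomerases were not called over the 6 libraries. PDIA3, which works with the lectins on glycoproteins, had a value of -0.05 (adjusted p = 0.774), PDIA4 -0.25 (0.511) and PDIA6 -0.13 (0.469). CRELD2, a disulfide isomerase-like protein induced by ER stress, had 0.34 (0.115). The vehicle libraries of PDIA6 and CRELD2 differed little (CV of 1.02% and 1.83%). The listed span of PDIA6 overlaps that of ATP6V1C2 on the opposite strand by 1720 bases, and a pseudogene, PDIA3P1, with at most 1.43 RPKM, shares sequence with PDIA3, so values of both could include reads of the other gene.

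**Figure D3:**
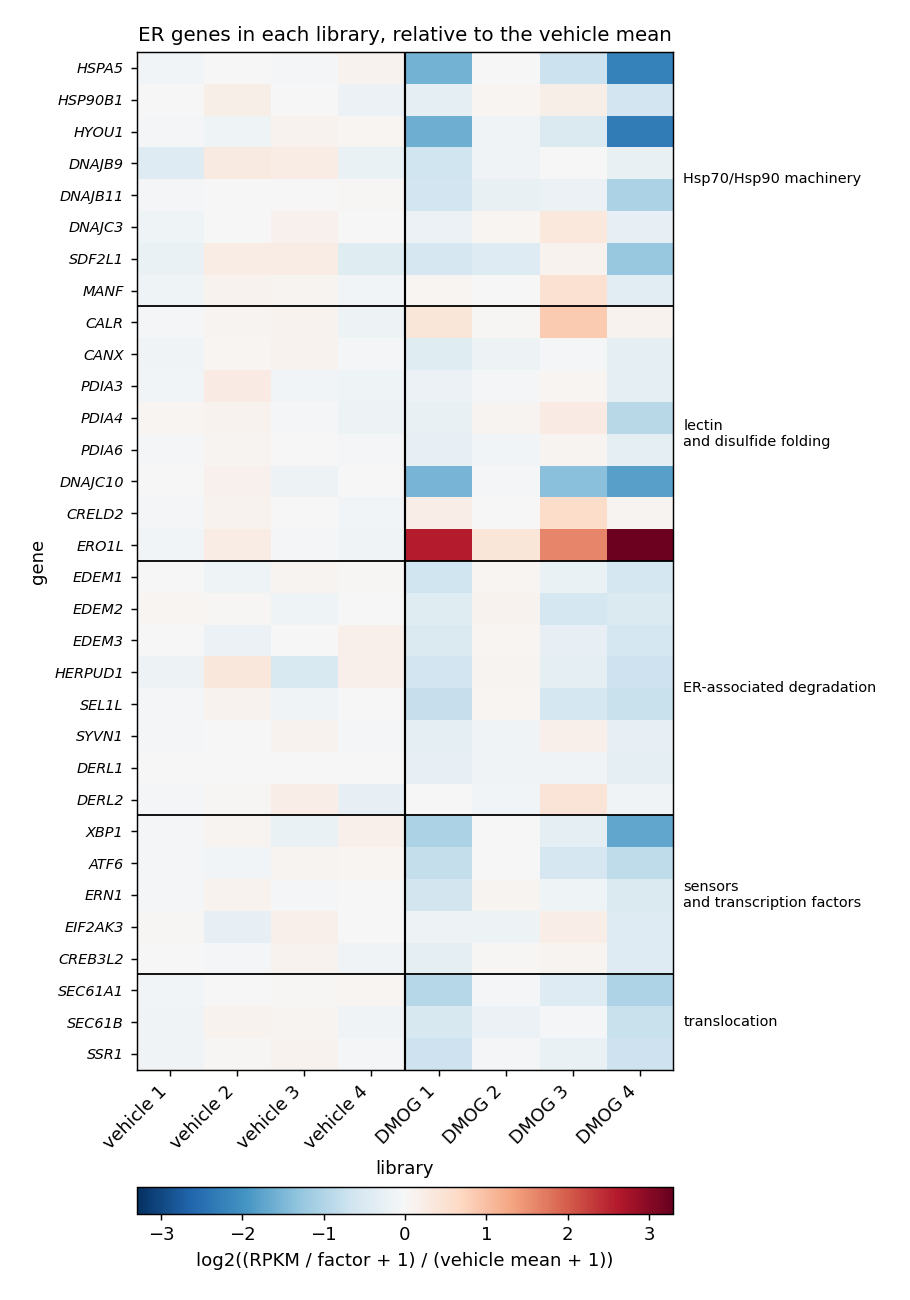
Level of each tested member in each library relative to the vehicle mean, as log2 of (RPKM divided by the library's median-ratio factor, plus 1) over (the vehicle mean plus 1), with blue lower and red higher. Rows are genes in the 5 classes and columns are libraries. The DMOG replicate 2 column is near white for most genes, and blue is darkest for HSPA5 and HYOU1 in DMOG replicate 4, whereas ERO1L is red in all 4 DMOG columns.

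Of the 9 members of ER-associated degradation, 8 were tested and 4 fell, SEL1L, EDEM1, EDEM2 and EDEM3, with 4 not called (class median -0.42). SEL1L (chr14:81937891-82000205, hg19) encodes the adaptor that holds the HRD1 ubiquitin ligase to its substrates, and had 17.8, 18.04, 16.2 and 18.6 RPKM with vehicle and 8.42, 18.1, 9.86 and 8.005 RPKM with DMOG. DMOG replicates 1, 3 and 4 lay between 45.3% and 55.7% of the vehicle mean, and replicate 2 was inside the vehicle range. The log2 fold change was -0.65 ± 0.10 (limma adjusted p = 0.00786), and SEL1L was called in each of the 12 alternatives (0.00328 to 0.0432). SYVN1, which encodes HRD1 itself, was not called (-0.14 ± 0.15, adjusted p = 0.503), with 29.1, 26.7, 31.4 and 29.1 RPKM in the vehicle and 19.97, 25.8, 28.3 and 18.6 RPKM in the DMOG libraries. The listed spans of SYVN1 and MRPL49 overlap by 91 bases on opposite strands.

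The EDEM proteins trim mannose from misfolded glycoproteins, and all 3 of their genes fell. EDEM1 (chr3:5229359-5261650, hg19) had 23.4, 18.97, 23.7 and 24.4 RPKM with vehicle and 11.9, 22.9, 16.6 and 11.4 RPKM with DMOG. EDEM2 (chr20:33703160-33735161, hg19) had 9.87, 8.78, 8.08 and 9.72 RPKM with vehicle and 5.61, 9.72, 4.94 and 4.89 RPKM with DMOG. EDEM3 (chr1:184659625-184724041, hg19) had 8.41, 6.303, 7.91 and 9.48 RPKM with vehicle and 4.59, 8.15, 5.53 and 3.89 RPKM with DMOG. In all 3 genes DMOG replicates 1, 3 and 4 lay below every vehicle library, and replicate 2 inside the vehicle range. Their log2 fold changes were -0.53 ± 0.14, -0.47 ± 0.11 and -0.51 ± 0.12 (limma adjusted p = 0.0283, 0.0218 and 0.0231). The EDEM1 call was lost with no filter (0.0528) and without vehicle replicate 1, 3 or 4 or DMOG replicate 1 or 4 (0.0844, 0.0806, 0.0893, 0.1003 and 0.0562). That of EDEM2 was lost without vehicle replicate 1 or 4 or DMOG replicate 1 (0.0953, 0.0852 and 0.0588), and that of EDEM3 without vehicle replicate 1, 3 or 4 or DMOG replicate 1 (0.0787, 0.05604, 0.0902 and 0.0828). Over the 12 alternatives the adjusted p ran from 0.00386 to 0.1003, 0.00556 to 0.0953 and 0.00742 to 0.0902.

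HERPUD1, a membrane protein that recruits the HRD1 complex and carries an ERSE-II, had 57.3, 74.4, 42.8 and 73.2 RPKM with vehicle and 33.7, 64.6, 42.5 and 29.9 RPKM with DMOG. Its vehicle libraries already differed by a CV of 24.1%, the widest of the tested members, and DMOG replicate 2 was inside their range, while replicate 3 was just below it as deposited and inside it on the median-ratio scale (-0.38 ± 0.19, adjusted p = 0.164). Derlins are membrane proteins of the retrotranslocation channel. DERL1 had 23.1, 20.95, 22.1 and 23.8 RPKM with vehicle and 15.4, 20.3, 17.8 and 14.2 RPKM with DMOG, all 4 of the latter below the former, but was not called (-0.23 ± 0.10, adjusted p = 0.113). DERL2 had 0.13 (0.603), and DERL3 stayed at or below 0.117 RPKM in every library, a level from which no difference was detectable.

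Among the 5 sensors and transcription factors, ATF6 fell and 4 were not called, all 5 with a negative sign (class median -0.38). ATF6 (chr1:161736034-161933860, hg19), a membrane-bound transcription factor freed by proteolysis under stress, stood at 14.6, 12.5, 15.2 and 15.8 RPKM with vehicle and at 6.69, 14.3, 8.14 and 5.92 RPKM with DMOG. DMOG replicates 1, 3 and 4 were below every vehicle library and replicate 2 was among them. The log2 fold change was -0.77 ± 0.11 (limma adjusted p = 0.00715), with a call in each of the 12 alternatives (0.00237 to 0.0403). ATF6 and EDEM3 lie between the listed start and end of SRGAP2D (at most 1.82 RPKM), but these are so far apart that they may join separate positions, and whether any reads are shared is not known.

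XBP1, the factor whose mRNA IRE1 splices, was the third most abundant member in vehicle libraries (149 ± 19.2 RPKM, SD, n = 4), far above the sensors. It had 148, 147, 126 and 173 RPKM with vehicle and 60.8, 147, 101 and 35.1 RPKM with DMOG. DMOG replicate 4 was at 23.6% of the vehicle mean, replicate 1 at 40.9% and replicate 3 at 68.1%, all below the vehicle range, and replicate 2 was inside it. XBP1 was not called (-0.99 ± 0.32, limma adjusted p = 0.0567), although it was as deposited (0.0249), without DMOG replicate 3 (0.00621) and with vehicle replicate 2 added (0.0273). Over the 12 alternatives the adjusted p was 0.00621 to 0.154. The values are gene totals, so the spliced and unspliced forms are not separated.

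The kinases that sense unfolded protein had the lowest vehicle levels of the tested members, ERN1 (IRE1) at 4.92 ± 0.196 RPKM and EIF2AK3 (PERK) at 7.56 ± 1.29 RPKM with vehicle (SD, n = 4). ERN1 had 2.44, 5.195, 3.73 and 2.52 RPKM in the DMOG libraries, with replicates 1, 3 and 4 below the lowest vehicle library and replicate 2 just above the highest as deposited but not on the median-ratio scale (-0.38 ± 0.14, adjusted p = 0.0823). EIF2AK3 had 5.56, 6.43, 7.61 and 4.14 RPKM, with replicates 2 and 3 inside the vehicle range of 5.67 to 8.52 RPKM as deposited (-0.21 ± 0.17, adjusted p = 0.369). CREB3L2, a membrane-bound factor of the ATF6 kind, had -0.23 (0.283).

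The 3 translocation components had a median of -0.52, and 2 of them fell over the 6 libraries, where 16.1% of all genes did. A list of 3 genes is short, and its share was not tested. SEC61A1 (chr3:127771212-127790526, hg19), the pore-forming subunit of the Sec61 channel, had 99.4, 93.3, 102 and 110.4 RPKM with vehicle and 44.1, 96.6, 64.6 and 38.7 RPKM with DMOG. SSR1 (chr6:7281376-7313547, hg19), a subunit of the translocon-associated protein complex, had 15.5, 15.8, 17.6 and 16.6 RPKM with vehicle and 8.21, 15.2, 12.05 and 7.602 RPKM with DMOG. In both, DMOG replicates 1, 3 and 4 were well below all vehicle libraries, and replicate 2 was inside the vehicle range for SEC61A1 and just below it for SSR1 (inside it on the median-ratio scale). The values were -0.80 ± 0.17 for SEC61A1 (limma adjusted p = 0.0158) and -0.52 ± 0.16 for SSR1 (0.0477). The SEC61A1 call was lost without vehicle replicate 1 or 4 or DMOG replicate 1 (0.0557, 0.0614 and 0.0672, with 0.00194 to 0.0672 over the 12 alternatives). The SSR1 call was lost with no filter (0.0839) and without vehicle replicate 1, 3 or 4 or DMOG replicate 1 or 4 (0.1004, 0.134, 0.118, 0.149 and 0.0977, with 0.00589 to 0.149). SEC61B, the small beta subunit, was not called (-0.39 ± 0.19, adjusted p = 0.147) except with the replicate block (0.0493), as deposited (0.0327) and without DMOG replicate 3 (0.0135), with 0.0135 to 0.3298 over the 12 alternatives.

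Set side by side, 3 of 16 folding factors fell and 1 rose over the 6 libraries (median -0.16), 4 of 8 degradation factors fell (-0.42) and 1 of 5 sensors and transcription factors fell (-0.38), where 16.1% of all genes were lower and 13.7% higher. The shares of folding factors and sensors that fell are near that of all genes. With RPKM as deposited the numbers lower were 5, 6 and 4 (medians -0.45, -0.70 and -0.61), where 34.5% of all genes were lower and the median gene was at -0.26. These counts describe lists of 5 to 16 genes, and the difference between classes was not tested. Values within the folding classes ranged from -1.52 to 2.56, and those of degradation from -0.65 to 0.13. Of the 9 members with an ERSE or ERSE-II in the promoter window, HSPA5 and HYOU1 fell and 7 were not called, a share near the 16.1% of all genes. The other 8 members that fell had neither element in it.

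By library, the members' median log2 ratio to the vehicle mean was -0.44, -0.01, -0.04 and -0.53 in DMOG replicates 1 to 4 on the median-ratio scale, where that of all genes was between -0.02 and -0.00. The machinery of Hsp70 and Hsp90 stood at -0.59, -0.06, 0.07 and -0.83, the lectin and disulfide factors at -0.22, -0.01, 0.18 and -0.30, and degradation at -0.44, 0.06, -0.24 and -0.53. The sensors and transcription factors stood at -0.60, 0.02, -0.15 and -0.48, and translocation at -0.69, -0.06, -0.21 and -0.74. In DMOG replicate 3 the degradation, sensor and translocation medians were thus below 0 and both folding medians above it. On the same scale DMOG replicate 2 was inside the vehicle range for 23 of 32 members (71.9%, against 72.2% of all genes), and as deposited for 22 (68.8%, against 72.6%). Replicate 4 was below replicate 1 and replicate 1 below replicate 3 for 24 of 32 members (75%, against 30.9% of all genes), and as deposited for 28 (87.5%, against 39%), an order that was chosen after the values were seen. CA9 stood highest in replicate 4, then 1, 3 and 2, and whether the members follow it was not tested.

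**Figure D4:**
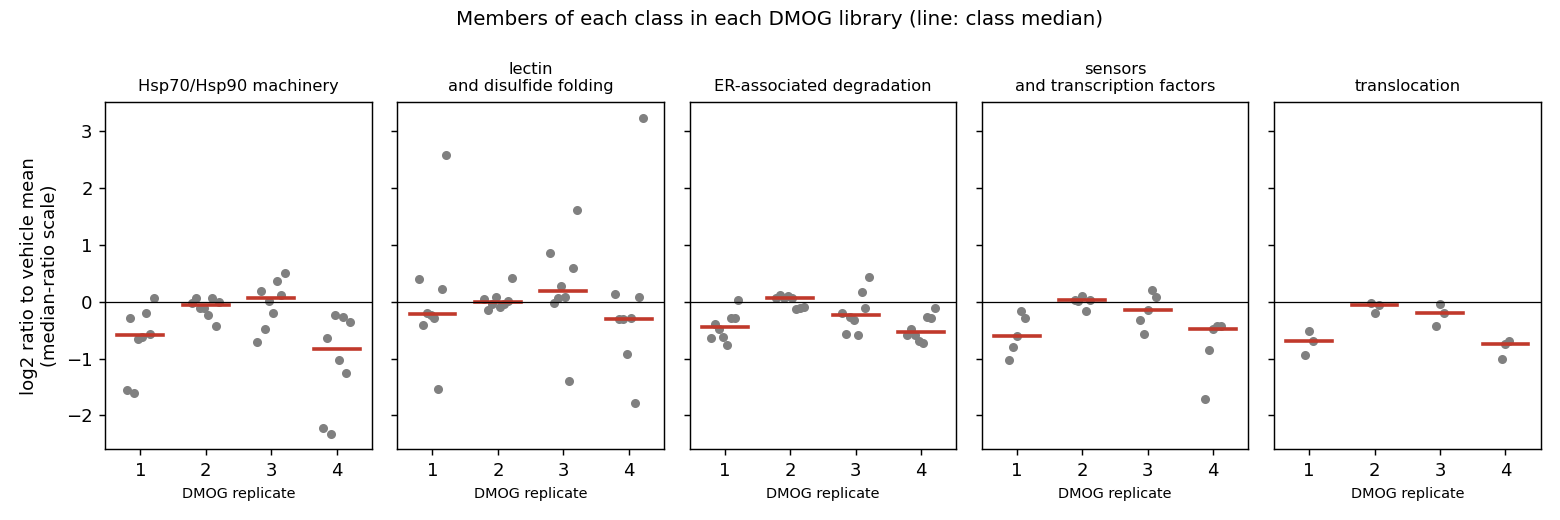
Log2 ratio of each member to the vehicle mean on the median-ratio scale, in DMOG replicates 1 to 4 and by class. Points are genes and red lines are class medians. The medians are near 0 in replicate 2 for every class, below 0 in replicates 1 and 4, and on both sides of 0 in replicate 3.

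In the authors' deposited table, which compares the same 6 libraries, 12 members had an adjusted p under 0.05 and were lower (17.6% of its 13424 genes were) and 2 were higher (18.8% were). The 10 members called lower here were among the 12, joined by DNAJB11 (log2 -0.60, adjusted p = 0.0376 in the authors' deposited table) and XBP1 (-0.89, 0.0244). The higher members in the authors' deposited table were ERO1L (2.73) and CALR (0.53, 0.0467). The table does not list DERL3.

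Other genes of the same pathways were counted from a list of 146, of which 145 were in the table and 136 were tested, 13 higher and 41 lower with DMOG over the 6 libraries (median -0.21), where all genes gave 13.7% and 16.1%. Of 36 folding and disulfide genes 5 were higher and 13 lower. QSOX1, a sulfhydryl oxidase that forms disulfides without ERO1, rose (1.53 ± 0.16, limma adjusted p = 0.00402), with 88.8, 122, 89.1 and 83.8 RPKM in the vehicle and 221, 112, 169 and 232 RPKM in the DMOG libraries. All DMOG libraries but replicate 2 were above the vehicle libraries. KDELR3, a receptor that returns ER proteins from the Golgi, also rose (1.11 ± 0.18, 0.008202), and HSPA13, an Hsp70-like protein of microsomes (-1.26 ± 0.21, 0.00935), and TXNDC12, a thioredoxin of the ER (-1.24 ± 0.17, 0.00613), fell.

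Of 35 degradation and extraction genes 4 were higher and 8 lower, where 13.7% and 16.1% of all genes were. The ubiquitin-conjugating enzyme UBE2G2 fell from 18.3 ± 1.18 to 6.05 ± 2.04 RPKM (SD, n = 3 each, -1.21 ± 0.18 SE, limma adjusted p = 0.00715). UBXN8, which tethers the p97 ATPase to the ER (-1.01 ± 0.12, 0.00458), and ERLIN2, a prohibitin-like ER protein (-0.80 ± 0.11, 0.00576), fell, while the deubiquitinase YOD1 rose (1.08 ± 0.20, 0.0115). Of 38 translocation and glycosylation genes 1 was higher and 12 lower, against the same shares of all genes. Those that fell most were SRPRB, a subunit of the signal recognition particle receptor (-1.82 ± 0.37, 0.0146), GFPT1, the first enzyme of hexosamine synthesis (-1.47 ± 0.26, 0.0103), the mannosyltransferase ALG3 (-1.29 ± 0.21, 0.00836) and SRP72 of the signal recognition particle (-1.11 ± 0.16, 0.00718).

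Of 27 stress signalling genes 3 were higher and 8 lower. The same 6-library fit called 13.7% of all genes higher and 16.1% lower. TRIB3, a pseudokinase induced by ATF4 and CHOP downstream of PERK, had 241, 264, 173 and 268 RPKM with vehicle and 22.1, 240.4, 45.1 and 35.1 RPKM with DMOG. It fell by 2.43 ± 0.27 on the log2 scale (limma adjusted p = 0.004195), more than any of the 33 members, and DMOG replicate 2 was inside its vehicle range. The ATF4 target ASNS, asparagine synthetase, had 189, 105, 194 and 194 RPKM with vehicle and 16.3, 152, 23.6 and 10.8 RPKM with DMOG, with the same 3 DMOG libraries low. Among the 27 stress signalling genes, ATF4 itself (0.26, limma adjusted p = 0.332) and DDIT3, which encodes CHOP (-0.52, 0.201), were not called. Nor were PPP1R15A (0.16, 0.664), ATF3 (-0.08, 0.922) and CHAC1 (-1.21, 0.16). EIF2S1, the subunit of eIF2 that PERK phosphorylates (-0.66 ± 0.15, 0.0196), and MBTPS1, the site-1 protease that cleaves ATF6 (-0.62 ± 0.11, 0.00977), fell, and DNAJB2, a cochaperone of the cytosol and ER membrane, rose (1.46 ± 0.21, 0.00636). With RPKM as deposited, 6 of the 136 were higher and 69 lower, where 6.13% and 34.5% of all genes were.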

How the data were processed

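RNA sequencing of 4 vehicle and 4 DMOG libraries was analysed. The authors deposited RPKM values per gene (in a table named for raw counts) with hg19 positions per the file headers. A further table, the authors' deposited comparison, holds group means on a signal scale, their ratio, its log2 value, a p-value and an adjusted p. The submitters' processing notes name HTSeq 0.6.1, Picard 1.129, SAMtools 1.3.1, Bowtie2 2.2.3.0, TopHat2 2.0.13, FastQC 0.11.5 and bcl2fastq, in no stated roles, and both hg19 and hg38. How strand was handled is not given in the sources used, so reads of genes overlapping on opposite strands cannot be told apart. Undoing the RPKM scaling gave whole reads for 100% of values above 0 (within 0.01 reads), and the recovered library totals were 31245695 to 39931833.

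The 11122 genes that reached 1 RPKM in 4 or more libraries entered limma 3.58.1 (R 4.3.3, statmod 1.5.0, trend and robust) on log2(RPKM + 1), two-sided, with Benjamini-Hochberg adjustment over all of them and a threshold of 0.05. This scale understates changes of low genes. The design foresaw either counts or RPKM, and the RPKM route applied. The 8 libraries were fitted as deposited and the 6 libraries after division by median-ratio factors. Tests were run on simulated counts, drawn independently for each library with the same spread for all genes. That check covers neither paired libraries nor a DMOG library that stands near the vehicle group. Over the 6 libraries, same-numbered libraries deviated together from their group means (correlations of 0.465, 0.395 and 0.340 for numbers 1, 3 and 4), so the numbers were taken to pair them, on the data alone. Over the 8 libraries, taken as deposited where the 6 were scaled, they did not all do so (0.0716, -0.0214, 0.532 and 0.239). The main fits hold the group only, and the pairing enters in the replicate block alone.

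The members, classes and lists were chosen with earlier results of these data known. All 33 members are named, and from the list of other ER genes up to 4 per class, those called over the 6 libraries with the largest change. ATF4, DDIT3, PPP1R15A, ATF3 and CHAC1, which were not called, are named in addition, after their values were seen. Alternatives were a pseudocount of 0.1, no filter, limma-voom on recovered reads, a replicate block, the other scaling, leaving out each library and, added after seeing the data, adding vehicle replicate 2 to the 6 libraries.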

Additional observations from a re-analysis of the deposited data

Results flagged for a closer look

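In DMOG replicate 2, DNAJC10 stood at 12.73 RPKM, apart from the 2.457 to 3.837 RPKM of the other 3 DMOG libraries. EDEM2 stood at 9.718 RPKM in the same library, apart from 4.886 to 5.61 RPKM. In both cases the gap to the next library exceeded the 95% critical value of Dixon's test for 4 samples. Of the 66 groups tested (33 members in 2 treatments), 2 were so marked, and chance marks about 1 in 20.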

How the results depend on the processing

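Over the 8 libraries 0 members were called lower and 0 higher with a pseudocount of 0.1, no filter, limma-voom, the replicate block and median-ratio factors. Leaving out 1 library gave 0 to 20 lower and 0 to 1 higher, with 20 and 1 only without DMOG replicate 2. There 32.2% of all genes were lower and 6.72% higher. Over the 6 libraries 10 were lower and 1 higher, against 16.1% and 13.7% of all genes. The number lower was 18 as deposited (34.5% of all genes), 7 with no filter (7.72%) and 13 with vehicle replicate 2 added (17.7%). With 1 library left out it was 3 to 16, where 4.85% to 22.7% of all genes were lower. Over these alternatives 1 to 2 members were higher, against 379 to 2224 of all genes. With the replicate block, which pairs same-numbered libraries, 12 were lower and 2 higher, against 2337 and 2181 of all genes. That block added DNAJB11, SEC61B and CALR and changed no other call over the 6 libraries. ATF6, DNAJC10, ERO1L and SEL1L were called in each of the 12 alternatives.

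Signs turned only among members that were not called. Over the 8 libraries, leaving out 1 library gave log2 fold changes of -0.304 to 0.0303 for MANF, -0.0147 to 0.274 for CALR and -0.0894 to 0.122 for CRELD2, and median-ratio factors gave 0.0566 for MANF and 0.0716 for DERL2. Over the 6 libraries, leaving out 1 library gave -0.393 to 0.0318 for HSP90B1, -0.315 to 0.0289 for DNAJB9, -0.2396 to 0.0846 for DNAJC3, -0.109 to 0.336 for MANF, -0.161 to 0.0350 for PDIA3, -0.543 to 0.0669 for PDIA4 and -0.0305 to 0.255 for DERL2. RPKM as deposited gave -0.185 for MANF and -0.151 for DERL2. The cause of these turns was not tested. The tested members had 106 or more reads in each library, and DERL3 had 1 to 13.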
